A study of Mus musculus with 6 samples.

Results

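Ppara and Acaa2 are 2 genes of fatty acid oxidation, and their transcripts were followed in small extracellular vesicles (sEVs) released by brown adipose tissue (sEV-BAT) and by white adipose tissue (sEV-WAT) of mice. They were picked as the replicated Agilent probes whose RefSeq accessions belong to Ppara (NM_011144, probe A_51_P348334) or Acaa2 (NM_177470, probe A_51_P125260). These are 2 of 46 named Agilent gene probes and 2 of 60823 probes on the array. Both genes were chosen with earlier results of the same contrast between sEV-BAT and sEV-WAT known. Their values in that contrast are therefore given as a description, with no test.

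Both groups came from male C57BL/6 mice given as 6 to 8 weeks old in the labels, with no treatment and no genetic change named. The methods give the age of the mice used for these sEVs as 6 weeks. Interscapular brown fat gave the 3 sEV-BAT samples and inguinal white fat the 3 sEV-WAT samples, after the minced tissue had been kept in culture for 2 days. Each sample pooled the sEVs of 10 mice according to the methods, so the spread between samples is that between pools. Total RNA was labelled with Cy3 by random priming and put on 1-colour Arraystar Mouse LncRNA V4 arrays, 1 array per sample. In pooled vesicle RNA, fewer vesicles from a kind of cell and less of a transcript per vesicle cannot be told apart.

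Fatty acid oxidation breaks acyl chains down to acetyl-CoA in mitochondria and peroxisomes, and brown adipocytes use it as fuel for heat production. Ppara encodes the nuclear receptor PPARα, which binds fatty acids as ligands and, with its partner RXR, switches on the genes of this pathway in liver, heart and brown fat. Acaa2 encodes the mitochondrial 3-ketoacyl-CoA thiolase, the enzyme of the last step of the β-oxidation cycle, which releases acetyl-CoA. One gene is thus a regulator of the pathway and the other an enzyme in it.

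Ppara and Acaa2 had each 10 spots on every array. All 60 spots of Ppara and all 60 spots of Acaa2 were well above background by the scanner software, and 0 were saturated. The software marked 3 Ppara spots and 5 Acaa2 spots as outliers, and these were left out. Before normalization the sEV-BAT arrays were brighter as a whole, with a median over probes of 81.3 to 92.1 intensity units against 57.1 to 58.5 for sEV-WAT. Slide 1 carried sEV-BAT 1 with all sEV-WAT arrays, while slide 2 carried sEV-BAT 2 and 3. The slide was therefore the same for every sEV-WAT array but not for the sEV-BAT arrays.

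For Ppara, the receptor gene, the mean spot intensity before normalization was 135, 35.1 and 234 on sEV-BAT 1, 2 and 3. It was 19.7, 26.3 and 22.2 on sEV-WAT 1, 2 and 3. The sEV-BAT arrays 1 and 3 were bright, while sEV-BAT 2 was close to the sEV-WAT arrays. The 308 negative control spots of an array had medians from 1.61 to 2.33. The brightest of them was 31.7, 50.3 and 797 on sEV-WAT 1, 2 and 3 and 47.4 on sEV-BAT 2. These were above the Ppara mean of the same array. On sEV-BAT 1 and 3 the brightest, 7.29 and 16.6, were below it. The spots of an array varied by a CV of 3.78% to 10.8% on the sEV-BAT arrays, and by 20.2%, 6.58% and 9.48% on sEV-WAT 1, 2 and 3. On sEV-BAT 2 the 10 spots ran from 29.1 to 41.7, on sEV-BAT 1 from 124 to 147 and on sEV-BAT 3, with 9 spots kept, from 222 to 245. The kept spots ran from 13.7 to 25.9 on sEV-WAT 1, from 23.9 to 30.2 on sEV-WAT 2 and from 19.2 to 26.5 on sEV-WAT 3, so the spots of the sEV-WAT arrays overlapped with each other. The low signal of sEV-BAT 2 was thus shared by all of its 10 Ppara spots. Of them, 9 were brighter than every kept Ppara spot of the sEV-WAT arrays, and 3 were brighter than every one when outlier spots, the brightest at 37.2 on sEV-WAT 2, were counted too. All arrays were as yet unscaled here.

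For Acaa2, the thiolase gene, the mean spot intensity before normalization was 198, 337 and 287 on sEV-BAT 1, 2 and 3. It was 144, 114 and 114 on sEV-WAT 1, 2 and 3. The brightest negative control spot was above the Acaa2 mean on sEV-WAT 3, at 797, and below it on every other array. Here sEV-BAT 2 was the brightest array and sEV-BAT 1 the dimmest of the sEV-BAT arrays. Its kept spots ran from 185 to 366 in sEV-BAT, and those in sEV-WAT, from 105 to 158, did not overlap with them. Over the tested probes, sEV-BAT arrays lying above every sEV-WAT array was the common case before normalization, at 70.0% of them.

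**Figure D1:**
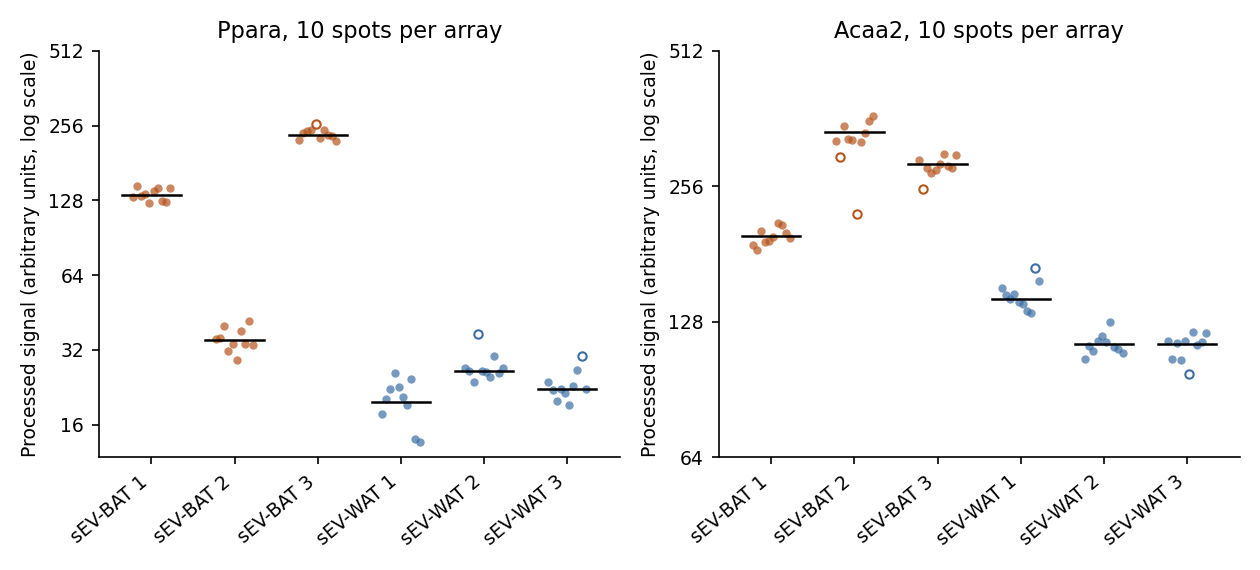
Processed spot signal of Ppara (left) and Acaa2 (right) on each array before normalization, on a log scale in arbitrary intensity units. Each point is 1 of 10 spots, open circles are outlier spots that were left out, and black lines are geometric means of the kept spots. The Ppara spots of sEV-BAT 2, from 29.1 to 41.7, sit near those of the sEV-WAT arrays, and the kept Acaa2 spots of sEV-BAT 2 are the brightest.

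Quantile normalization gives all arrays the same distribution of values, as the study did for its own comparison. After it, the Ppara log2 intensity was 6.78, 4.94 and 7.62 on sEV-BAT 1, 2 and 3. It was 4.72, 5.10 and 4.75 on sEV-WAT 1, 2 and 3. The groups overlapped, as the value of sEV-BAT 2 minus that of sEV-WAT 2 was -0.16. Without normalization between arrays they were apart, with 5.13 on sEV-BAT 2 and 4.72 on sEV-WAT 2. In that setting 70.0% of the tested probes had all sEV-BAT arrays above all sEV-WAT arrays. The sEV-BAT mean was 6.45 ± 1.37 (SD, n = 3), and the mean over the sEV-WAT arrays was 4.86 ± 0.21 (SD, n = 3). The log2 difference was 1.59 (limma standard error 0.65), which is 3.01-fold, and it was hardly larger than the SD among the sEV-BAT arrays. Ppara was past a 2-fold difference upward, as were 2.27% of the 54443 probes tested (3.57% in either direction), and 0.422% had a difference at least as large as that of Ppara. Since the contrast was known when Ppara was chosen, nothing is read from this place.

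The spread of Ppara among sEV-BAT arrays was wide. The sEV-BAT values spanned 2.68 log2 units and the sEV-WAT values 0.37. Of all tested probes, 1.42% had an SD among the sEV-BAT arrays at least as large, and for the sEV-WAT arrays that share was 32.3%. Among the 43 named Agilent gene probes that passed the filter, Ppara had the largest SD in sEV-BAT. The next was Uhrf1bp1l, with 0.86. For Ppara, sEV-BAT 2 minus the mean of sEV-BAT 1 and 3 was -2.26 log2 units, and 0.786% of the tested probes had sEV-BAT 2 at least as far below.

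Single arrays weighed on the Ppara difference. Without sEV-BAT 2 it was 2.34 and without sEV-BAT 3 it was 1.004, at the edge of a 2-fold difference. Within slide 1, sEV-BAT 1 lay 1.93 log2 units above the mean of the 3 sEV-WAT arrays. Slide 2 carried both sEV-BAT 3 and sEV-BAT 2, the highest and the lowest of the group. The part of the slide in the Ppara values was not tested. With normexp background correction, which raises low signals by an offset, the difference was 0.85, below 2-fold.

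The Acaa2 log2 intensity after quantile normalization was 7.37, 8.14 and 7.92 on sEV-BAT 1, 2 and 3. It was 7.36, 7.11 and 7.12 on sEV-WAT 1, 2 and 3. The groups touched without overlapping, as sEV-BAT 1 and sEV-WAT 1 were 0.0095 log2 units apart. All sEV-BAT arrays were higher than all sEV-WAT arrays at 14.5% of the tested probes. At 1.01% they were also at least 2-fold higher, which held for neither Ppara nor Acaa2. For Acaa2 this separation was lost when outlier spots were kept and with normexp. The sEV-BAT mean was 7.81 ± 0.40 (SD, n = 3), and the mean over the sEV-WAT arrays was 7.20 ± 0.14 (SD, n = 3). The log2 difference was 0.61 (limma standard error 0.21), which is 1.53-fold. A difference at least as large upward was found at 6.86% of the tested probes.

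Among the sEV-BAT arrays, Acaa2 was highest on the pair of slide 2. sEV-BAT 2 and 3 lay 0.95 and 0.72 log2 units above the sEV-WAT mean, and sEV-BAT 1, on the slide of the sEV-WAT arrays, lay 0.17 above it. With slide as a block, which compares only sEV-BAT 1 with the sEV-WAT arrays, the difference was 0.17 (limma standard error 0.18). The mean of sEV-BAT 2 and 3 lay 0.66 log2 units above sEV-BAT 1 for Acaa2, and 3.46% of the tested probes had at least that step. The slide and the sEV-BAT pools cannot be told apart in this step. Without normalization between arrays, the Acaa2 difference was 1.12, or 2.17-fold. In that setting 17.6% of the tested probes were at least 2-fold higher in sEV-BAT.

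**Figure D2:**
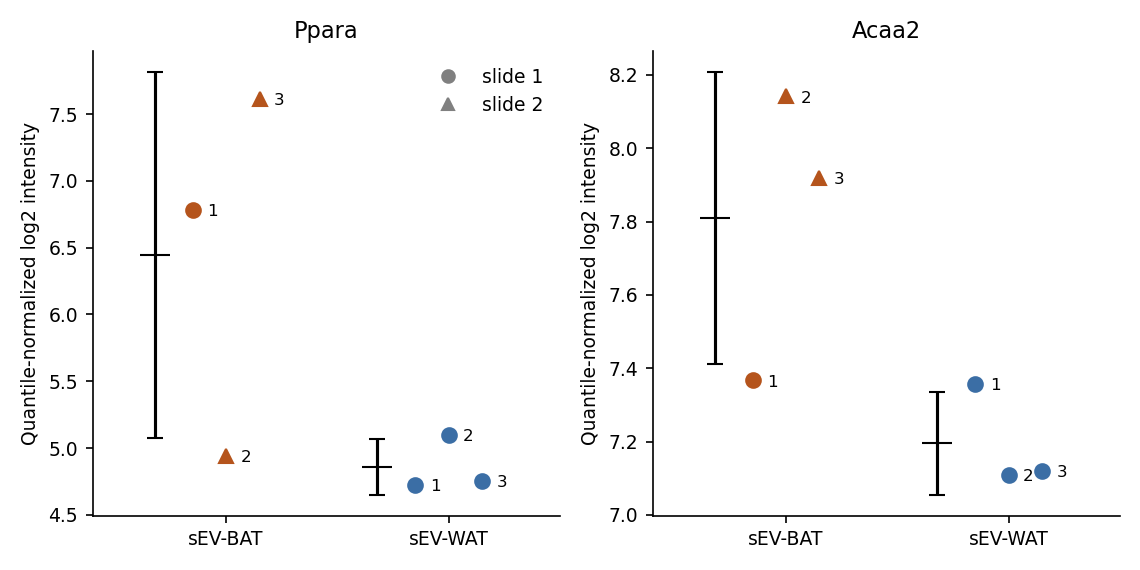
Quantile-normalized log2 intensity of Ppara (left) and Acaa2 (right) by group. Points are arrays with their replicate number, circles are slide 1 and triangles slide 2, and bars are the mean ± SD of 3 arrays. For Ppara, sEV-BAT 2 at 4.94 lies among the sEV-WAT arrays, and for Acaa2, sEV-BAT 1 at 7.37 lies beside sEV-WAT 1 at 7.36.

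Ppara and Acaa2 thus had higher means in sEV-BAT than in sEV-WAT, but the order of the sEV-BAT samples differed between them. On sEV-BAT 3, Ppara lay 2.76 and Acaa2 0.72 log2 units above their sEV-WAT means. Ppara was lowest and Acaa2 highest on sEV-BAT 2. Over all tested probes, sEV-BAT 2 was the lowest of the sEV-BAT arrays at 34.4% and the highest at 39.5%. Over the 43 named Agilent gene probes it was the lowest at 7 and the highest at 24.

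Of the 49 genes on 5 lists of fatty acid oxidation, covering transport and activation, mitochondrial and peroxisomal β-oxidation, PPARα with its partners, and PPARα targets, the files name 3. Most probes carry identifiers that the files do not pair with genes, so this counts names and not what the array measures. Beside Ppara and Acaa2 the named gene is Cpt1a (NM_013495), the carnitine palmitoyltransferase that controls the entry of long acyl chains into mitochondria. Cpt1a had log2 intensities of 5.83, 6.46 and 6.33 on sEV-BAT 1, 2 and 3. It had 5.91, 5.81 and 5.70 on sEV-WAT 1, 2 and 3. As with Acaa2, sEV-BAT 2 and 3 were above all sEV-WAT arrays. This also held for genes of other kinds, such as Duox1, Olfr1307 and Tm9sf1. The mean of sEV-BAT 2 and 3 lay 0.56 log2 units above sEV-BAT 1 for Cpt1a, and 4.6% of the tested probes had at least that step. For Cpt1a sEV-BAT 1 lay within the sEV-WAT range, whereas for Acaa2 it lay just above it. The log2 difference was 0.40 (limma standard error 0.18, adjusted p = 0.207 with Benjamini-Hochberg adjustment over all probes), so Cpt1a did not pass the test. With slide as a block it was 0.02 (limma, adjusted p = 0.962), and without normalization it was 1.002 (limma, adjusted p = 0.00588). In that last setting 65.3% of the tested probes passed an adjusted p of 0.05, with a median difference of 0.62 over all of them.

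Cpt1a was the named gene whose pattern over the 6 arrays was most like that of Acaa2. Likeness was taken as the mean absolute difference between the log2 values of both probes, each centred on its own mean over the 6 arrays. It was 0.11 log2 units for Cpt1a. Next came Duox1, an oxidase that makes hydrogen peroxide, with 0.12, H2-Q7, a class Ib histocompatibility gene, with 0.12, Anxa8, an annexin, with 0.14, and Olfr1307, an olfactory receptor gene, with 0.14. Of the 54443 tested probes, 11479 lay within 0.3 log2 units of Acaa2, the nearest at 0.047 and thus closer than Cpt1a. That limit also takes in probes that hardly varied, such as Gamt, at 0.28 with a log2 difference of 0.19. The count therefore does not show how common the Acaa2 pattern was.

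**Figure D3:**
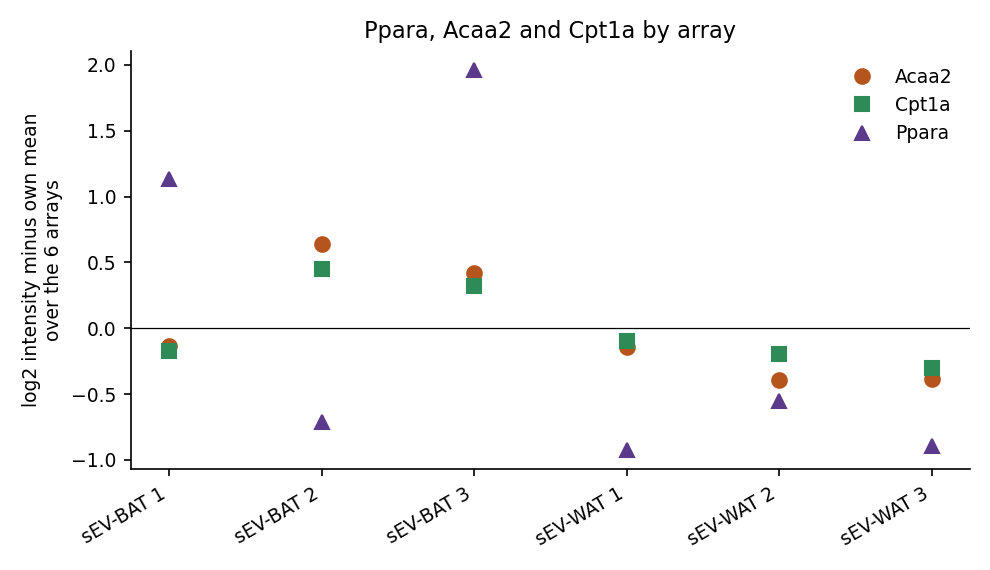
Log2 intensity of Ppara (triangles), Acaa2 (circles) and Cpt1a (squares) on each array, after quantile normalization and minus each probe's own mean over the 6 arrays. Acaa2 and Cpt1a lie close together on every array, with a mean absolute difference of 0.11, while Ppara is high on sEV-BAT 1 and 3 and low on sEV-BAT 2.

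No named gene lay close to Ppara by this measure, which depends on the size of the differences as well as on the order of the arrays. The likest were Gm9789, a predicted gene, with 0.70, Tm9sf1, a membrane protein of the endosomal system, with 0.79, Atg3, an enzyme of autophagosome formation, with 0.83, Duox1 with 0.84 and Olfr1307 with 0.85. All of these had smaller differences, and in all of them sEV-BAT 2 lay above every sEV-WAT array. Over all tested probes, 169 lay within 0.3 log2 units of Ppara, the nearest at 0.10. Of these 169 probes, 60 had identifiers that begin with ASMM10AP1B, 83 had identifiers with LNC or lincRNA, and 26 had others. These were 0.297%, 0.309% and 0.350% of the tested probes of each kind. One with a name was humanlincRNA1546-, at 0.18, which was singled out after its values were seen.

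Among the 43 named Agilent gene probes tested, the Ppara difference was the largest upward and that of Acaa2 ranked 10. The other 41 had a median log2 difference of 0.19, against -0.02 over all tested probes. Of these 41, 13 had all sEV-BAT values above all sEV-WAT values and 7 had them below, which is 31.7% and 17.1%. Over all tested probes these shares were 14.5% and 21.8%. The filter also let in probes well above background on the sEV-BAT arrays alone. Of the 13, Bambi was well above background on 3 sEV-BAT and 0 sEV-WAT arrays, and Nup50 on 3 and 1. Nothing is therefore read from the gap between these shares. Gm9789 was the only one of the 41 past 2-fold upward, and 0 of them were past 2-fold downward, as were 1.31% of the tested probes.

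**Figure D4:**
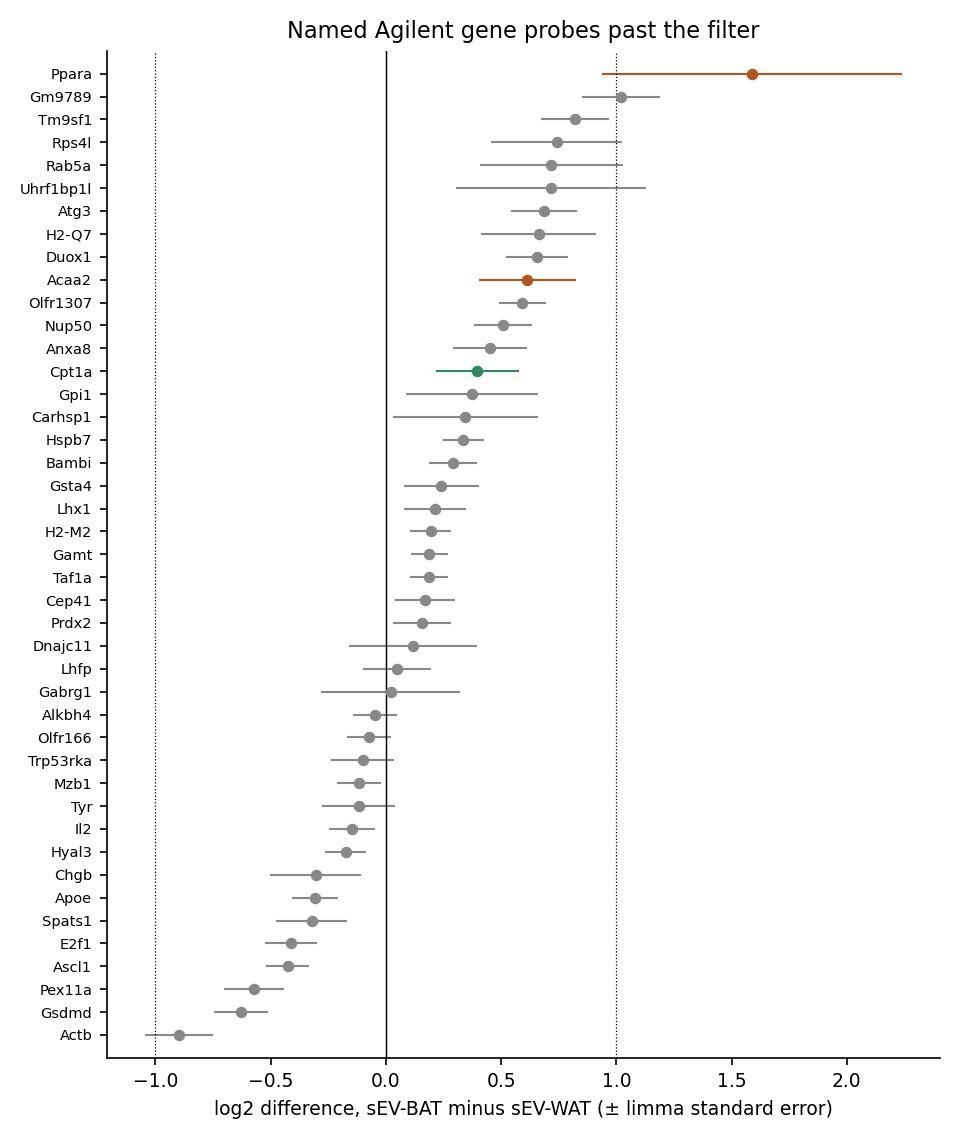
Log2 difference between sEV-BAT and sEV-WAT for the 43 named Agilent gene probes past the filter, after quantile normalization, with limma standard errors as bars. Dotted lines mark a 2-fold difference. Ppara, at 1.59, has the largest difference and the widest bar, Acaa2 is at 0.61 and Cpt1a, in green, at 0.40.

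Pex11a (NM_011068), which encodes a peroxisomal membrane protein and is known as a gene that PPARα ligands induce, was on none of the 5 lists and was picked by its name after the table of values had been made. It had log2 intensities of 10.49, 10.41 and 10.26 on sEV-BAT 1, 2 and 3. It had 10.73, 11.06 and 11.07 on sEV-WAT 1, 2 and 3. The groups did not overlap, with sEV-BAT the lower, as at 21.8% of the tested probes. The log2 difference was -0.57 (limma standard error 0.13, adjusted p = 0.0533), which did not pass an adjusted p of 0.05. Without normalization between arrays the Pex11a difference was -0.01. On sEV-BAT 2, where Ppara was lowest, Pex11a lay between the other two sEV-BAT arrays.

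The labels of the tissues could not be checked against named markers of brown or white adipocytes. Of 51 markers of brown and white adipocytes, other cell types and sEVs, the files name 1, the T-cell cytokine gene Il2, and 0 of the brown and 0 of the white adipocyte markers. Here too the count is of names, and other markers may be measured by probes without one. Il2 had log2 intensities from 7.90 to 8.03 in sEV-BAT and, overlapping with these, from 8.00 to 8.21 in sEV-WAT. The part of other cell types in the Ppara and Acaa2 values was not tested.

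**Figure D5:**
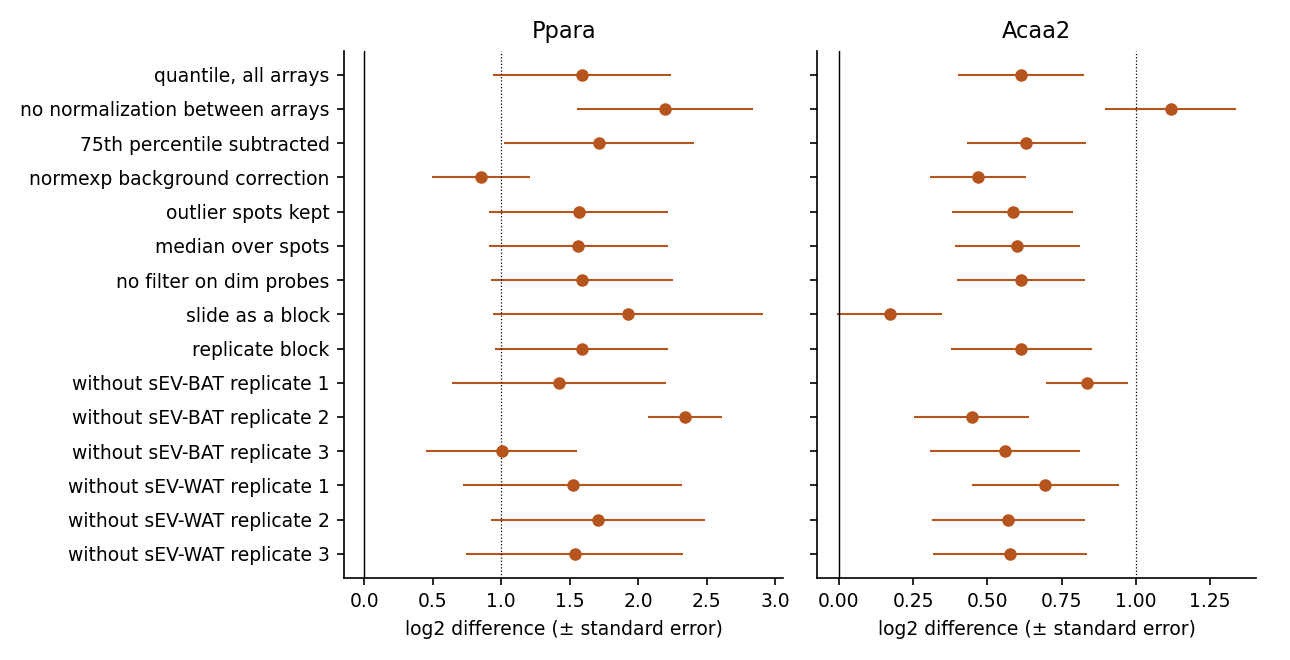
Log2 difference between sEV-BAT and sEV-WAT for Ppara (left) and Acaa2 (right) under each way of processing and with each array left out, with limma standard errors as bars. The dotted line marks a 2-fold difference. Ppara runs from 0.85 with normexp to 2.34 without sEV-BAT 2, and Acaa2 from 0.17 with slide as a block to 1.12 without normalization.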

How the data were processed

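For each array the authors deposited the output of Agilent Feature Extraction 11.0.1.1, whose processed intensities are background-subtracted and still on each array's own scale. They also deposited quantile-normalized log2 values made in GeneSpring GX. That table leaves out the replicated probes, the Ppara and Acaa2 probes described here among them, and other probes could not be matched to these genes.

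Here log2 intensities were taken, outlier spots left out, spots of a probe averaged and arrays quantile-normalized. The filter kept 54443 of 60823 probes, those well above background on 3 or more of the 6 arrays. limma 3.58.1 under R 4.3.3 was fitted over all of them, with Benjamini-Hochberg adjustment, after a check on simulated data. Figures were drawn with matplotlib 3.10.9 under Python 3.11.15.

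Accessions without versions were matched to a RefSeq gene table of GRCm38.p6, which named 46 of 50 Agilent probes. The file headers name mm9 for the array design, so no coordinates are given. Of the 46, 3 did not pass the filter. The other genes named are those of the gene lists that the files name and the 5 with the likest pattern for Ppara and for Acaa2. Pex11a, Uhrf1bp1l, Gamt, Bambi, Nup50 and humanlincRNA1546- were added after their values were seen. The genes, lists and alternatives were chosen with earlier results of these data known. Alternatives were no normalization, the 75th percentile, normexp, outlier spots kept, medians over spots, no filter, slide or replicate number as a block, each array left out, and the methods' t-test. Mice were divided into 3 groups of 10 per the methods, which do not state whether same-numbered sEV-BAT and sEV-WAT samples share a group. The number of arrays limits the precision.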

Additional observations from a re-analysis of the deposited data

How the results depend on the processing

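Ppara kept a higher mean in sEV-BAT under all 14 alternatives, and moved by less than the pooled SD between arrays in each. That SD was 0.98 log2 units, a wide limit that even the move from 1.59 to 0.85 with normexp did not pass. Leaving out the filter or using replicate number as a block cannot change the estimate. With each array left out in turn it ran from 1.004 to 2.34. It fell below 2-fold with normexp alone. Acaa2 also kept its direction. It was 1.12 without normalization between arrays and 0.17 with slide as a block, and ran from 0.45 to 0.84 with each array left out. Cpt1a and Pex11a, with alternatives chosen after seeing the data, kept the sign of their differences. Cpt1a was only 0.02 with slide as a block, and Pex11a only -0.01 without normalization. Both were smaller than their standard errors, so the sign says little there. The adjusted limma p ran from 0.0312, with normexp, to 0.928 for Pex11a and from 0.00588 to 0.962 for Cpt1a.

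The share of probes past 2-fold in either direction was 3.57%, and 17.7% without normalization, 1.39% with normexp, and from 2.18% to 5.02% with each array left out, lowest without sEV-BAT 3. Using the study's thresholds (2-fold, unadjusted limma p up to 0.05), 1235 probes passed, and sEV-BAT was higher at 49.0% of them. The number was 8930 without normalization, 1884 with the 75th percentile subtracted, 520 with normexp and 641 with slide as a block, with 99.5%, 79.9%, 35.6% and 33.4% higher. It ran from 769 to 2519 with each array left out, at 769 without sEV-BAT 3, 2085 without sEV-BAT 1 and 2519 without sEV-BAT 2. The median difference over all probes was 0.62 without normalization and 0.13 with the 75th percentile. The methods' t-test gave 970 probes at 2-fold and an unadjusted p up to 0.05. With no fold threshold, 62 of the tested probes had a Benjamini-Hochberg adjusted t-test p up to 0.05. The cause of these shifts was not tested.

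The replicate number as a block left the differences at 1.59 for Ppara and 0.61 for Acaa2, as the design is balanced, with standard errors of 0.63 and 0.24, 3.58% past 2-fold and 1283 probes at the thresholds. Across probes, same-numbered arrays had correlations of -0.25, -0.09 and 0.22 between their deviations, not each the best for its array, so the numbers are not shown to pair the samples. Low signal limits Ppara on the sEV-WAT arrays and sEV-BAT 2.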
